A study of Caenorhabditis elegans with 9 samples.

Results

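The fibrous organelles of Caenorhabditis elegans are hemidesmosome-like junctions that carry the pull of the body wall muscles through the thin epidermis to the cuticle. A transmembrane receptor holds the basal epidermal membrane to the matrix facing the muscle, other receptors hold the apical membrane to the cuticle, and a cytoplasmic linker and intermediate filaments join the faces of the cell. Animals that lose these proteins are known for muscles that detach from the body wall and for failed elongation of the embryo. The 8 genes described here were let-805, vab-10, ifb-1, ifa-2, ifa-3, mup-4, mua-3 and vab-19. They were chosen by name as parts of this structure, with the opposite position of mua-3 in the 2 depletions already known. All 8 were among the 13246 genes listed in at least 1 library, and 7 were among the 8026 genes deep enough to test. The gene long called ifa-2 is listed under its other name, mua-6, and is called mua-6 below.

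RNA was sequenced from whole worms that had been plated as synchronized eggs and kept at 16 °C; the labels call them embryos and give no stage at harvest. Every strain, controls included, carried degron::GFP::rpoa-2, a tagged form of a core subunit of RNA polymerase I, the enzyme that transcribes the large ribosomal RNA precursor. Controls had no TIR1 transgene and no auxin and were taken at 18 h (n = 2) and 24 h (n = 2). Hypodermal depletion combined col-10p::TIR1, expressed in the epidermis, with 1 mM of the auxin IAA for 24 h (n = 3). Global depletion combined eft-3p::TIR1, expressed broadly, with the same IAA and time (n = 2). TIR1 is the plant protein that marks a degron for destruction in the presence of auxin. Since no control carried TIR1 or received IAA, effects of either and of the loss of RPOA-2 cannot be told apart. Separate cultures are not stated in the labels for libraries of 1 group. The p-values therefore measure spread among these libraries alone, and that spread may be technical.

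Counts over coding sequence totalled 166455 to 506659 in the 4 control libraries and 781648 to 2134185 in the 5 depleted libraries, a 12.8-fold range. No count below 3 is listed. A count of 3 stood for 6.04 to 18.1 CPM in controls and 1.44 to 3.89 in depleted libraries. CPM are counts scaled to a common library size, with TMM factors. The targeted gene, rpoa-2, was at 187 and 272 CPM in the 18 h controls and 156 and 260 in the 24 h controls. It was at 290, 279 and 238 CPM in hypodermal and 355 and 369 in global depletion. The degron acts on the protein, so this mRNA does not check the depletion. Epidermal markers (9 genes) were listed in every 24 h group, and their summed level was 1206 to 1359 CPM in the 24 h controls, 1083 to 1575 in hypodermal and 1169 to 1319 in global depletion. Body wall muscle, intestinal, pharyngeal and neuronal markers were also present, so the libraries hold whole animals as labelled. In bulk RNA, fewer cells of a type and less RNA per cell cannot be told apart.

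Per kilobase of coding sequence, the genes fell into a high and a low set. In the 24 h controls let-805 was at 414 ± 57.8 CPM per kb (SD, n = 2 for all values in the controls) and ifb-1 at 351 ± 25.5. Then came mua-6 at 178 ± 12.3, mup-4 at 162 ± 0.170 and vab-10 at 157 ± 48.3. The low set was mua-3 at 22.7 ± 5.76 and vab-19 at 14.9 ± 1.95 CPM per kb. The mup-4 and mua-6 levels lay inside the range of vab-10, so these neighbours did not differ beyond their spread. In hypodermal depletion (n = 3) ifb-1 at 345 ± 29.1 and let-805 at 343 ± 76.1 CPM per kb headed the order, followed by mua-6 at 264 ± 46.0. In global depletion (n = 2) ifb-1 was at 261 ± 19.9, let-805 at 254 ± 34.8 and mua-6 at 132 ± 0.955 CPM per kb. In the hypodermal group every mua-6 library exceeded every library of mup-4 (156 ± 18.4) and vab-10 (143 ± 50.1), and in the 24 h controls mua-6 overlapped vab-10. In the 18 h controls ifb-1 (497 ± 32.5) was above let-805 (428 ± 5.53 CPM per kb), the reverse of the 24 h controls. At the low end, mua-3 was above vab-19 in hypodermal depletion, 42.9 ± 7.62 against 28.3 ± 9.81 CPM per kb, and its mean was below that of vab-19 in global depletion, 12.7 ± 0.389 against 14.9 ± 2.67.

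The basal receptor is let-805 (myotactin; WBGene00002915, transcript H19M22.2b.1), counted over 27 coding exons at III:2658083-2681112 (WBcel235, as are all positions here). It stood at 5660 and 5765 CPM in controls at 18 h, at 4974 and 6066 in controls at 24 h, at 5744, 4160 and 3851 after hypodermal depletion and at 3719 and 3062 after global depletion. Both global libraries were below all 4 controls, whereas the hypodermal libraries overlapped the 24 h controls. The fitted log2 fold change was -0.70 (SE 0.21) for global depletion and -0.27 (SE 0.19) for hypodermal depletion against the 24 h controls. The first of 3 hypodermal libraries stood near the controls, and without it the second value was -0.51.

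The cytoplasmic linker is vab-10 (WBGene00006876), a spectraplakin whose A isoforms sit in the organelles and whose B isoforms bind the cytoskeleton. One coding transcript, ZK1151.1c.1, was counted, with 30 coding exons at I:11747440-11792118, while the annotation holds 14 coding transcripts. Isoforms were therefore not separated. The annotation has 46 distinct coding segments for vab-10, so segments outside that transcript may not have been counted. It stood at 2993 and 2783 CPM in controls at 18 h, at 1814 and 2828 in controls at 24 h, at 2898, 2049 and 1416 after hypodermal depletion and at 1978 and 1616 after global depletion. All groups overlapped except global depletion and the 18 h controls. Its log2 fold change against the 24 h controls was -0.37 (SE 0.24) in global and -0.13 (SE 0.22) in hypodermal depletion, both within about 1 to 2 SE of 0.

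The intermediate filaments of the organelle pair IFB-1 with an A-type partner. The common partner, ifb-1 (WBGene00002053, F10C1.2b.1), was counted over 7 coding exons at II:5765618-5772084. It stood at 838 and 919 CPM in controls at 18 h, at 589 and 653 in controls at 24 h, at 593, 667 and 568 after hypodermal depletion and at 436 and 486 after global depletion. The order of the groups was thus 18 h controls highest, global depletion lowest, and the other 2 overlapping in between. Its log2 fold change was -0.43 (SE 0.22) in global and -0.03 (SE 0.20) in hypodermal depletion against the 24 h controls.

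The A-type partner mua-6, encoding IFA-2 (WBGene00003485, W10G6.3.1), has 6 coding exons at X:16262295-16265686. It stood at 316 and 236 CPM in controls at 18 h, at 296 and 326 in controls at 24 h, at 466, 539 and 378 after hypodermal depletion and at 232 and 230 after global depletion. Every hypodermal library was above, and both global libraries were below, all 4 control libraries. The log2 fold change against the 24 h controls was 0.57 (SE 0.22) in hypodermal and -0.43 (SE 0.24) in global depletion. A piRNA on the opposite strand, 21ur-12975, shares 21 bases with its coding sequence, and use of strand in the counting is not given in the sources used here. The neighbouring gene ifa-3 (WBGene00002051, F52E10.5.1, 6 coding exons at X:16267257-16270056) encodes another A-type filament and lies 1570 bases away. It was listed in 1 of 9 libraries, with 4 counts or 1.92 CPM in the first hypodermal library, and could not be tested. The genes have coding sequences of the same length, 1743 bases, and are close relatives, so the division of shared reads between them is uncertain.

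The apical receptors are mup-4 and mua-3, transmembrane proteins with EGF-like repeats that hold the epidermis to the cuticle. The first, mup-4 (WBGene00003497, K07D8.1.1), was counted over 20 coding exons at III:7479680-7489075. It stood at 1277 and 1028 CPM in controls at 18 h, at 1022 and 1023 in controls at 24 h, at 1084, 1012 and 856 after hypodermal depletion and at 800 and 686 after global depletion. Global depletion was below every other library, and the remaining groups were close together. Against the 24 h controls its log2 fold change was -0.46 (SE 0.21) in global and -0.05 (SE 0.19) in hypodermal depletion.

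The other receptor, mua-3 (WBGene00003482, K08E5.3a.1), was counted over 34 coding exons at III:10160697-10183529. It was at 261 and 181 CPM (53 and 30 counts) in the 18 h controls and 210 and 302 CPM (66 and 150 counts) in the 24 h controls. It was at 563, 500 and 393 CPM (1170, 747 and 303 counts) in hypodermal and 141 and 147 CPM (187 and 171 counts) in global depletion. No group at 24 h overlapped another, with hypodermal depletion above and global depletion below every control library at both times. The group means were 256 ± 65.1 CPM in the 24 h controls (SD, n = 2), 485 ± 86.1 in hypodermal depletion (SD, n = 3) and 144 ± 4.40 in global depletion (SD, n = 2). This is 1.88-fold higher in hypodermal depletion, a log2 fold change of 0.91 (SE 0.23), and 1.80-fold lower in global depletion, -0.85 (SE 0.25). The 24 h controls differed from each other more than the global libraries did, and over 19 alternative treatments of the data the hypodermal value lay between 0.68 and 1.20. The global value lay between -1.08 and -0.55, the latter without the second 24 h control.

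The last gene, vab-19 (WBGene00006882, T22D2.1.1), encodes an ankyrin-repeat protein of the KANK family that lies at the attachments, and was counted over 18 coding exons at II:2443279-2451130. It had the fewest counts of the tested genes and was at 104 and 42.3 CPM (21 and 7 counts) in the 18 h controls and 50.9 and 42.3 CPM (16 and 21 counts) in the 24 h controls. Hypodermal depletion gave 114, 54.3 and 97.2 CPM and global depletion 40.7 and 52.5. The hypodermal libraries were above the 24 h controls, but the first 18 h control was among them. Its log2 fold change against the 24 h controls was 0.94 (SE 0.37) in hypodermal and 0.01 (SE 0.41) in global depletion, with the widest errors of the 7 genes.

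**Figure D1:**
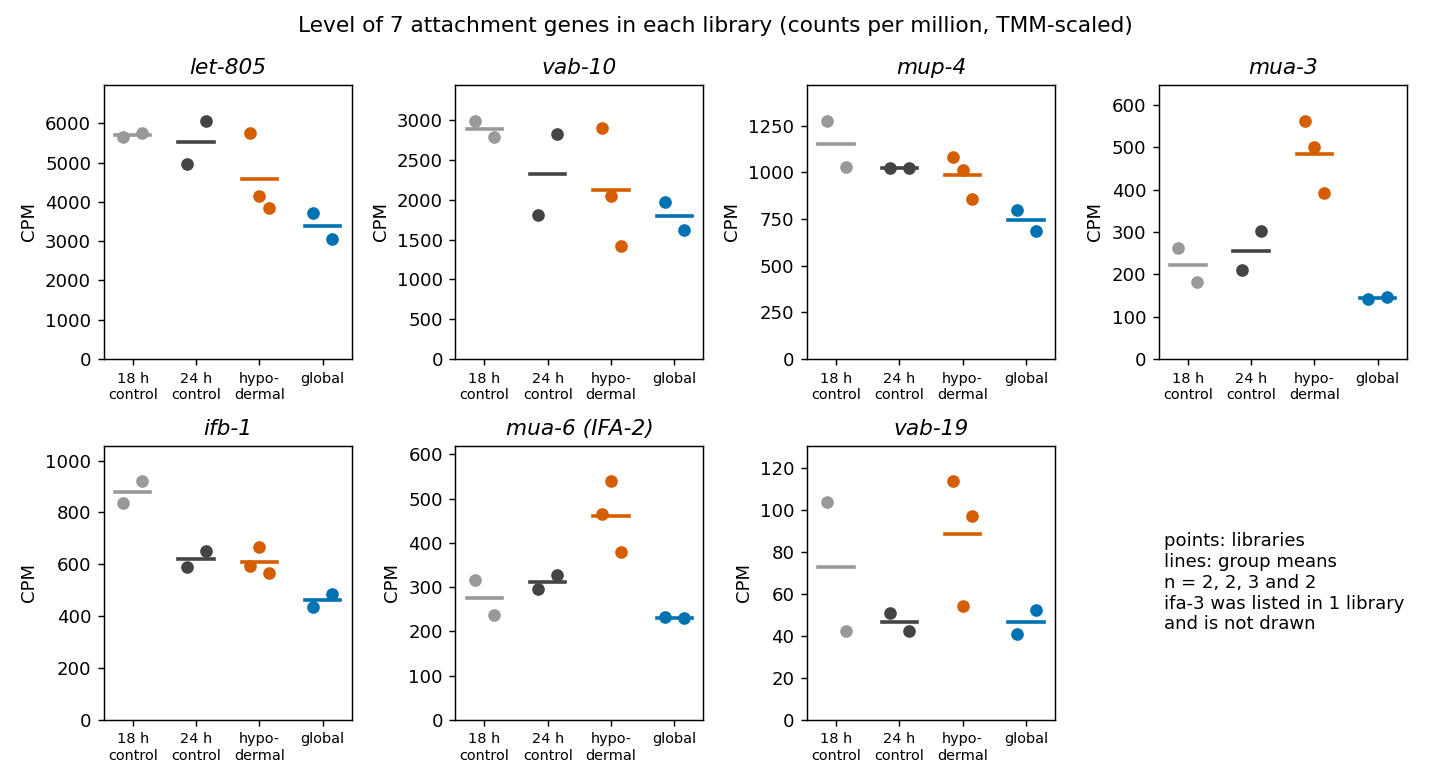
Levels of the 7 tested attachment genes, with CPM on each vertical axis from 0 and the 4 groups along the horizontal axis; each point is 1 library and each short line is the mean of its group. For mua-3 the hypodermal libraries lie at 393 to 563 CPM and the global libraries at 141 and 147, on either side of the 24 h controls at 210 and 302.

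Against the 24 h controls, 6 of the 7 tested genes had a lower fitted level in global depletion. Of these, 5 had no overlap between the groups (mua-3, let-805, mup-4, ifb-1 and mua-6). The share of all genes without overlap was not counted in any comparison, so nothing is read from the number of genes without overlap. The median log2 fold change of the 7 was -0.43, beside 0.01 over all 8026 genes. With edgeR's quasi-likelihood test and Benjamini-Hochberg adjustment, mua-3 and let-805 were past the threshold of 0.05, beside 8.45% of all genes in either direction and 5.01% lower. The choice of the genes drew on this contrast, so nothing is read from that count. Leaving out the second 24 h control or the second global library brought it to 0, and leaving out the first global library or the second hypodermal library brought it to 1. It was also 0 with unlisted counts taken as 0, with scaling by total count alone, with no filter on low counts and with libraries thinned to the smallest total.

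In hypodermal depletion most of the set was near the 24 h control level. The median log2 fold change was -0.03, beside 0.03 over all genes. Estimates were higher for mua-3, mua-6 and vab-19, for which the groups did not overlap, and between -0.27 and -0.03 for let-805, vab-10, mup-4 and ifb-1, whose groups did overlap. Only mua-3 was past the threshold, beside 5.05% of all genes in either direction and 1.66% higher, and again the choice of genes drew on the contrast. It was not past it without the first 24 h control, the first hypodermal or the second hypodermal library, at 0.68, 0.75 and 0.86.

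With the depletions set against each other, all 7 genes had a higher estimate in hypodermal than in global depletion, with a median log2 difference of 0.44 beside 0.01 over all genes. The one exception among the alternatives was vab-10, at -0.10 without the first hypodermal library. For 6 genes the groups did not overlap, and vab-10 was the exception. The share of all genes without overlap was not counted here either. The difference was 1.76 (SE 0.23), or 3.38-fold, for mua-3 and 1.00 (SE 0.21) for mua-6. It was 0.93 (SE 0.32) for vab-19 and between 0.24 and 0.44 for the others. The genes past the threshold were mua-3 and mua-6, beside 4.42% of all genes in either direction and 2.99% higher in hypodermal depletion. The genes were chosen with this contrast known, so nothing is read from that count either. It was 1, for mua-3, with thinned libraries and without either global library. Over the 19 alternatives the difference lay between 1.59 and 1.89 for mua-3 and between 0.75 and 1.12 for mua-6.

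**Figure D2:**
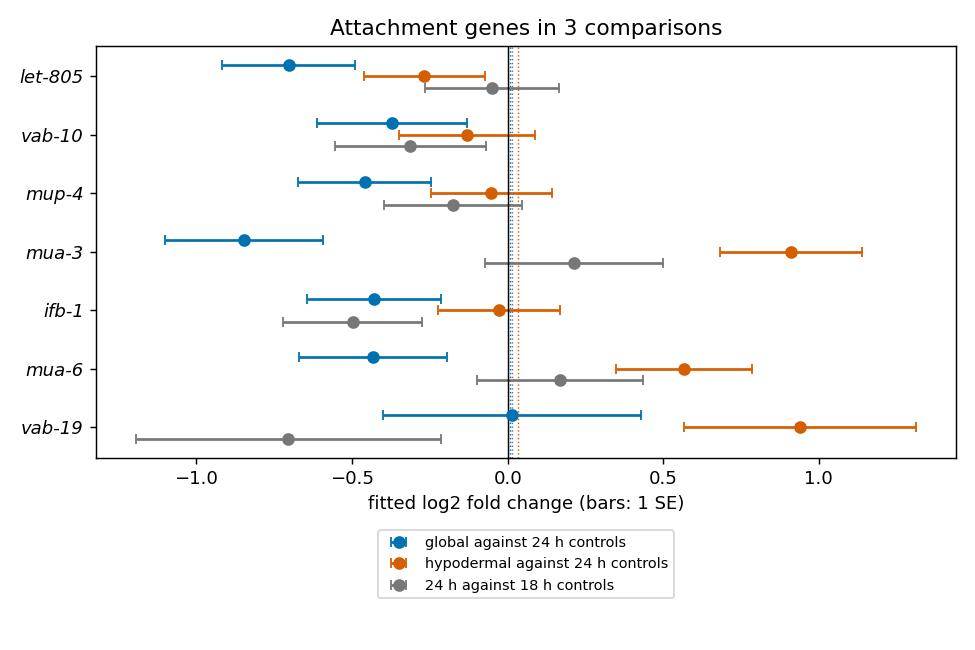
Fitted log2 fold changes of the 7 tested genes (horizontal axis, bars of 1 SE) in 3 comparisons, with genes along the vertical axis; dotted lines mark the median of all genes tested in each comparison. The comparisons are each depletion against the 24 h controls, and 24 h against 18 h controls. The hypodermal value is farthest right for vab-19 at 0.94 and mua-3 at 0.91, and left of 0 for 4 of 7 genes. The global value is left of 0 for 6 of 7.

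The 18 h controls gave a different ranking. Against them, global depletion was lower in the estimate for all 7 genes, with a median of -0.68. It was past the threshold for ifb-1 (-0.93, SE 0.22), let-805 (-0.75, SE 0.22), vab-10 (-0.68, SE 0.24) and mup-4 (-0.64, SE 0.22), beside 14.6% of all genes in either direction and 8.61% lower. The value for mua-3 was -0.63 (SE 0.28). That count of 4 fell to between 0 and 2 when either 18 h control, either 24 h control, either global library or the second hypodermal library was left out. It was 0 without the second 18 h control, and the same 4 genes' estimates shrank to between -0.36 and -0.08 with no filter on low counts. Hypodermal depletion was past the threshold for mua-3 (1.12, SE 0.26) and mua-6 (0.74, SE 0.24), beside 13.0% of all genes in either direction and 5.46% higher. Without the second 18 h control neither was past it, and mua-6 was past it in 12 of 19 alternatives. It was not without either of the first 2 hypodermal libraries, with RLE factors or DESeq2 (0.62 in both), with only the compared groups fitted or with thinned libraries. With RLE factors and with DESeq2, ifb-1 was past it instead, at -0.64. Comparisons of a depletion with the 18 h controls, here and below, also differ in time, so time and depletion cannot be told apart in them. The same depleted libraries enter the comparisons with both control times. The genes were chosen with values of those libraries known, so nothing is read from these counts of genes past the threshold.

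Between the control times, a contrast that did not choose the genes, none of the 7 passed the test, beside 3.07% of all genes in either direction (edgeR's quasi-likelihood test, Benjamini-Hochberg adjustment over 8026 genes). At an unadjusted p below 0.05 there was 1, ifb-1, and DESeq2 also called 0. The level of ifb-1 was 1.41-fold lower at 24 h than at 18 h, a log2 fold change of -0.50 (SE 0.22, adjusted p = 0.241 by edgeR), and lower in both libraries. The interval of 2 SE around that value ran from -0.95 to -0.05. For mua-3 the change was 0.21 (SE 0.29, adjusted p = 0.769 by edgeR), with an interval from -0.36 to 0.78. Over the fits that left out 1 library each, the mua-3 estimate ran from -0.03 to 0.68. The values of mup-4, vab-10, let-805, mua-6 and vab-19 were -0.18, -0.31, -0.05, 0.17 and -0.70, with adjusted p from 0.491 to 0.942 by edgeR. For vab-19 the interval was from -1.69 to 0.28, the widest.

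Ratios of counts within a library do not depend on the scaling between libraries. Among the counts of the apical receptors, mua-3 took 34.2%, 33.1% and 31.4% in the hypodermal libraries. The exact (Clopper-Pearson) 95% intervals ran from 28.5% to 35.8% over these libraries. Its share was 17.0% and 15% in the 18 h controls, 17.1% and 22.8% in the 24 h controls and 14.97% and 17.7% in global depletion. The upper bound of the highest of these was 26.2%, below the lowest hypodermal bound, so the counting intervals of the hypodermal libraries overlapped those of no other library. In global depletion, where mua-3 and mup-4 were both at lower levels, its counting intervals overlapped those of the controls, with an exception. The interval of the first global library, up to 17.1%, lay below that of the second 24 h control, from 19.6%. The share of mua-3 in the counts of mua-3 and let-805 behaved alike, at 8.93%, 10.7% and 9.25% in hypodermal depletion and 3.05% to 4.74% in the other 6 libraries. These intervals cover counting error only, and since mua-3 was chosen for its levels the shares are a description.

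Among the filament partners, mua-6 took 44.0%, 44.7% and 40% of the counts of mua-6 and ifb-1 in hypodermal depletion. It took 27.4% and 20.4% in the 18 h controls, 33.5% and 33.3% in the 24 h controls and 34.7% and 32.1% in global depletion. The hypodermal libraries were again the highest, although the lower bound of the third, 36.4%, was below the upper bounds of both 24 h controls, 39.3% and 37.7%, and of the first global library, 37.96%. The share of vab-10 in vab-10 and let-805, the linker and the basal receptor, did not set hypodermal depletion apart. It ran from 26.9% to 33.5% in hypodermal depletion, 26.7% and 31.8% in the 24 h controls, 34.6% and 32.6% in the 18 h controls and 34.7% and 34.6% in global depletion, where both libraries were above those of the 24 h controls and of hypodermal depletion.

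**Figure D3:**
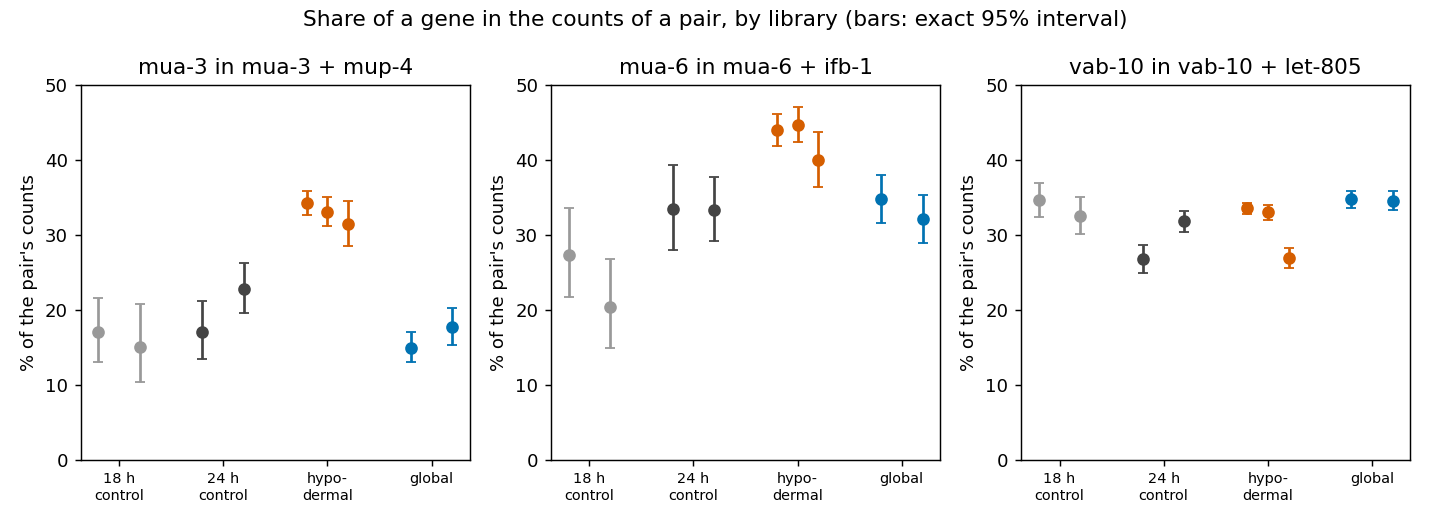
Share of 1 gene in the summed counts of a pair (vertical axis, percent, from 0) by library and group, with exact 95% intervals of counting error. The mua-3 share of the apical receptors is 31.4% to 34.2% in hypodermal depletion and 14.97% to 22.8% elsewhere, whereas the vab-10 share of vab-10 and let-805 overlaps between hypodermal depletion and the 24 h controls.

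Across the 9 libraries, the gene whose log2 CPM was most like that of mua-3 among 5452 genes with a mean of at least 20 CPM was another of the set, mua-6, at a Pearson r of 0.97. The next were pud-4 (0.945), cpl-1 (0.943), pdi-6 (0.92) and npa-1 (0.92). Of these, cpl-1 encodes a cathepsin L-like protease, pdi-6 a protein disulfide isomerase and npa-1 a secreted lipid-binding polyprotein. All 5 genes, mua-6 and pud-4 included, were at their highest in hypodermal depletion. The values for pud-4 rest on 102 to 109 CPM in the hypodermal libraries and a single listed value of 6.04 CPM elsewhere, with unlisted counts entered as 1, and it has near-identical relatives. The gene npa-1 was at 3225 to 3318 CPM in hypodermal depletion, 1374 and 1384 in global depletion and 1494 to 1670 in the controls. The other attachment genes were less like mua-3, with r of 0.61 for vab-19 (rank 184), 0.47 for mup-4 (rank 433), 0.34 for let-805, 0.21 for ifb-1 and 0.19 for vab-10. The libraries share 4 groups and differ in depth, so these r values are descriptions without a test.

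Other genes of the epidermal attachment showed no call in either depletion against the 24 h controls. This list held pat-12, the filament genes ifa-1 and ifa-4, the transcription factor mua-1, unc-23, spon-1, the signalling genes git-1, pix-1 and pak-1, and the spectrins spc-1, sma-1 and unc-70. Of its 12 genes, 11 were tested with edgeR's quasi-likelihood test. None passed in global or hypodermal depletion against the 24 h controls, between the depletions or between the control times. In these 4 comparisons 1, 1, 0 and 2 had an unadjusted p below 0.05, and DESeq2 called 0 in each. The list's median log2 fold change was 0.03 in global and -0.04 in hypodermal depletion. The largest estimate in global depletion was that of sma-1, the beta-heavy spectrin of the apical cortex, at 876 CPM in the 24 h controls and 1313 in global depletion (0.58, SE 0.24, adjusted p = 0.136 by edgeR).

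Against the 18 h controls a few of these genes did pass with edgeR. In both depletions sma-1 rose, by 0.95 (SE 0.25, adjusted p = 0.00609) in global and 0.82 (SE 0.23, adjusted p = 0.0142) in hypodermal depletion. In global depletion ifa-4, another A-type filament, fell from 138 and 90.7 CPM to 32.4 and 45.6 (-1.57, SE 0.40, edgeR adjusted p = 0.00475). In hypodermal depletion ifa-1 fell from 611 and 478 CPM to 354, 351 and 210 (-0.83, SE 0.23, edgeR adjusted p = 0.0110). The signalling gene pix-1 was unlisted in both 18 h controls and was at 29.8 to 38.9 CPM in hypodermal depletion. That level was at least 2.00-fold higher against 3 counts in each of those controls. With unlisted counts entered as 1, its edgeR adjusted p was 0.0391. The pix-1 call was lost with unlisted counts entered as 2 and with RLE factors, so it depends on the value entered. Over 18 alternatives its log2 fold change ran from 1.73 to 7.91. Calls of sma-1 in hypodermal depletion were lost without either 18 h control or without the first or second hypodermal library, as were those of pix-1. That of ifa-4 was lost without the first 18 h control or the first global library, and that of ifa-1 without the first 18 h control or the third hypodermal library. DESeq2 called 2 of the list in each depletion, and in hypodermal depletion both were lower, so that it called neither sma-1 nor pix-1 there. Between the control times, log2 fold changes were 0.38 for sma-1, -1.33 for ifa-4, -0.35 for ifa-1 and 2.03 for pix-1. The value for pix-1 again rests on unlisted 18 h counts entered as 1. The 24 h controls held ifa-4 at 50.9 and 42.3 CPM and pix-1 at 28.6 and 18.1. Against those controls ifa-4 was at -0.24 (SE 0.41) in global depletion and pix-1 at 0.55 (SE 0.50) in hypodermal depletion.

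The basement membrane between muscle and epidermis held 17 tested genes. In global depletion unc-52, the perlecan that anchors muscle to this matrix, fell from 2317 and 2036 CPM in the 24 h controls to 1292 and 1171 (log2 fold change -0.82, SE 0.21, edgeR adjusted p = 0.00805). The call was lost without the first 24 h control, without the second global library and with no filter on low counts, with adjusted p of up to 0.138 by edgeR. No gene of this list passed in hypodermal depletion against the 24 h controls, where 4 had an unadjusted p below 0.05 and DESeq2 called 0. Between the control times lam-1, the laminin beta chain, rose from 325 and 284 CPM at 18 h to 522 and 649 at 24 h (0.94, SE 0.25, edgeR adjusted p = 0.0266), a call lost without the second library of either time. Against the 18 h controls 7 rose and 1 fell in hypodermal depletion, beside 13.0% of all genes in either direction, led by nid-1 (1.41, SE 0.30), lam-1 (1.36, SE 0.24) and lam-2 (0.88, SE 0.24). That count of 8 was 2 without the first 18 h control or the second hypodermal library, 3 without the second 18 h control, 5 without the first hypodermal library and 4 with RLE factors. In global depletion 2 rose and 1 fell, beside 14.6% of all genes, lam-1 (1.14, SE 0.25), mig-6 (0.63, SE 0.22) and unc-52 (-0.91, SE 0.22). Of these, the calls of nid-1 and lam-1 held in all 19 alternatives, and those of lam-2, mig-6 and unc-52 did not. Between the control times the values of nid-1, lam-2, mig-6 and unc-52 were 1.02, 0.39, 0.44 and -0.09, none past the threshold. The count of 3 in global depletion was 1 without the first 18 h control, and 2 without the second, the second hypodermal library or either global library.

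On the muscle side, none of 16 dense body and M line genes passed in either depletion against the 24 h controls, between the depletions or between the control times by edgeR. In these comparisons 3, 0, 2 and 4 had an unadjusted p below 0.05, and DESeq2 called 1 between the control times and 0 in the others. Against the 18 h controls the same number, 4, fell in each depletion, beside 14.6% of all genes called in global and 13.0% in hypodermal depletion. The largest falls in global depletion were those of zyx-1, or zyxin (-1.31, SE 0.24), deb-1, or vinculin (-1.09, SE 0.22), and lim-8, a LIM-domain protein of muscle (-1.08, SE 0.35). In hypodermal depletion they were those of unc-96, an M line protein (-1.01, SE 0.26), lim-8 (-0.96, SE 0.32) and zyx-1 (-0.89, SE 0.21). Between the control times zyx-1, deb-1, lim-8 and unc-96 were at -0.80, -0.54, -1.26 and -0.53. Against the 24 h controls, in the same order, they were at -0.51, -0.55, 0.18 and -0.34 in global depletion. The hypodermal values against those controls were -0.09, -0.11, 0.30 and -0.48. The count of this list depended on the 18 h libraries: without either of them 2 genes passed in global depletion, and without the first and the second 2 and 0 passed in hypodermal depletion. Leaving out either global library or the second hypodermal library also left 2 in the depletion concerned.

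The apical matrix genes laid over the attachments had larger fold changes against the 24 h controls than any attachment gene. These are fbn-1, a fibrillin-like protein, and noah-1 and noah-2, zona pellucida domain proteins of the embryonic sheath and cuticle. All 3 fell in both depletions against the 24 h controls with edgeR. For noah-1 the 24 h controls held 175 and 222 CPM, against 63.99, 70.3 and 63.5 after hypodermal and 15.8 and 12.05 after global depletion. Its log2 fold change was -1.60 (SE 0.28) in hypodermal and -3.82 (SE 0.36) in global depletion. The corresponding values were -2.05 (SE 0.28) and -4.16 (SE 0.38) for noah-2 and -1.06 (SE 0.28) and -3.51 (SE 0.37) for fbn-1. The groups were ordered alike for all 3, controls above hypodermal above global, without overlap, and the difference between the depletions passed too, at 2.22 for noah-1, 2.10 for noah-2 and 2.44 for fbn-1. That order differs from that of mua-3, which was highest in hypodermal depletion. Most of these calls held in all 19 alternatives. For fbn-1 in hypodermal depletion 5 alternatives lost the call, among them leaving out the second 24 h control (-0.53) or the third hypodermal library, and thinning lost its difference between the depletions. Between the control times none of the 3 passed by edgeR, with 0 at an unadjusted p below 0.05 and 0 called by DESeq2. Against the 18 h controls all 3 fell in global depletion, with log2 fold changes from -3.68 to -3.31. In hypodermal depletion noah-1 (-1.32) and noah-2 (-1.58) fell, calls lost without the first 18 h control.

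**Figure D4:**
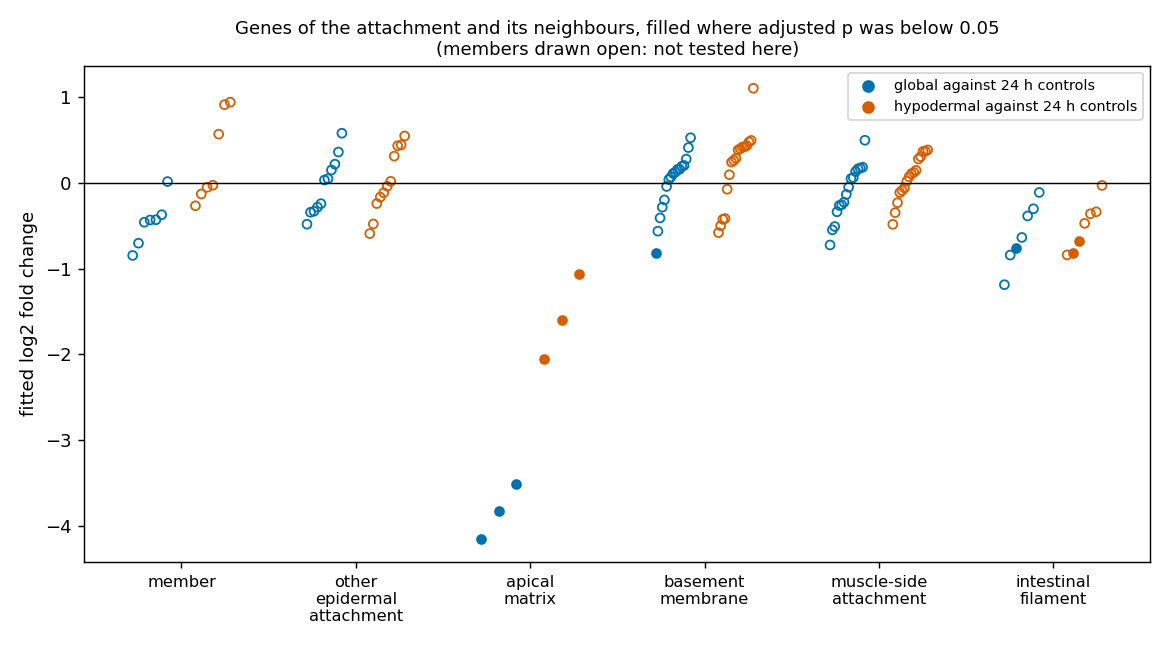
Fitted log2 fold changes (vertical axis) of the attachment genes and of 5 lists of related genes against the 24 h controls, 1 point per gene, in global and hypodermal depletion; filled points had an adjusted p below 0.05 and the attachment genes are drawn open. The 3 apical matrix genes lie lowest, at -3.51 to -4.16 in global depletion, while the attachment genes lie between -0.85 and 0.94.

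The intermediate filaments of the intestine, relatives of ifb-1 and mua-6 that line the gut lumen, had lower estimates in both depletions for all 7 genes tested. Among them ifb-2 passed and fell in global (-0.76, SE 0.21, edgeR adjusted p = 0.0150) and hypodermal depletion (-0.68, SE 0.19, edgeR adjusted p = 0.0239) against the 24 h controls. Its levels were 1674 and 1376 CPM in those controls, 878, 856 and 1116 in hypodermal and 958 and 836 in global depletion. The filament organizer ifo-1 fell in hypodermal depletion (-0.82, SE 0.22, edgeR adjusted p = 0.0163), from 363 and 409 CPM to 268, 221 and 162. Both ifb-2 calls were lost without the first 24 h control and without the second library of the depletion concerned, and that of ifo-1 without the second 24 h control or the third hypodermal library. Between the control times ifb-2 fell by 0.99 and ifc-1 by 1.18 on the log2 scale (edgeR adjusted p = 0.00432 and 0.00104), each lost without the second 24 h control and the first also without the first 18 h control. Against the 18 h controls 5 fell in global and 6 in hypodermal depletion, beside 14.6% and 13.0% of all genes called in either direction. The largest falls were those of ifd-1 (-1.92, SE 0.34), ifb-2 (-1.75, SE 0.22) and ifc-1 (-1.57, SE 0.22) in global depletion and ifb-2 (-1.67, SE 0.19), ifd-1 (-1.44, SE 0.31) and ifc-1 (-1.21, SE 0.20) in hypodermal depletion. Between the control times ifd-1 was at -1.08 (SE 0.36), not past the threshold.

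Markers of other cell types moved with some of these values. Of 7 intestinal markers, 3 fell in global depletion against the 24 h controls, beside 5.01% of all genes. Among these was ifb-2, which is also in the filament list above, so the lists are not independent. Between the depletions 3 markers were higher in hypodermal depletion, beside 2.99% of all genes. The summed level of the 7 markers, ifb-2 included, was 4663 to 6479 CPM in the 24 h controls, 3675 to 5439 in hypodermal and 3384 to 3515 in global depletion. Of 7 body wall muscle markers 1 fell in global depletion and 0 in hypodermal depletion by edgeR, where 1 had an unadjusted p below 0.05 and DESeq2 called 1, with summed levels of 19280 to 24470, 19790 to 25340 and 17810 to 19820 CPM in that order of groups. Of 8 tested epidermal markers 1 fell in each depletion, the collagen gene dpy-7, named after its values were seen, and 0 differed between the depletions by edgeR, where 0 had an unadjusted p below 0.05 and DESeq2 called 0. The summed epidermal level overlapped between the depletions. Most of that sum was 1 marker, ajm-1, at a mean of 779 CPM in hypodermal and 783 in global depletion. The sum therefore says little of the other epidermal markers. The part of the other tissues in the attachment genes' levels was not tested.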

How the data were processed

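The table the authors deposited holds raw counts per gene over the coding sequence of 1 transcript, with WBcel235 coordinates, a build that the submitters' processing notes also name, along with DESeq2. Trizol extraction, RNase H depletion of ribosomal RNA and a SMARTER library kit preceded sequencing, per the labels' protocols. Not given in the sources used here are the aligner, the counter, whether strand was used, and how reads common to several genes were treated. Of the 10 libraries in the table, 1 matched no sample and was not used. No count below 3 is listed; unlisted counts entered the fit as 1, and library totals (166455 to 2134185) are those of listed counts.

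Counts were tested with R 4.3.3 and edgeR 4.0.16. Genes passed filterByExpr (minimum count 10, minimum total 15, unlisted read as 0), libraries were scaled with TMM, and the robust quasi-likelihood model held all 9 libraries and 1 term per group, with Benjamini-Hochberg adjustment over the 8026 genes kept, with 0.05 as the threshold. The biological coefficient of variation was 0.203. CPM values carry the TMM factors, and fold changes are fitted log2 values with standard errors (SE). The scripts were tested on simulated data. Alternatives included DESeq2 1.42.0. The gene name table held 13153 of the 13246 identifiers. Shares carry exact 95% binomial intervals.

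The members, the lists and the rule for naming genes were chosen with earlier results of these data known. That rule names all 8 members, rpoa-2, every called gene of the other epidermal attachment list, up to 3 called genes with the largest change per other list and comparison, and the 5 genes most like mua-3. Because the depletion contrasts chose the members, their folds there carry no p-value.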

Additional observations from a re-analysis of the deposited data

Results flagged for a closer look

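For 2 attachment genes every hypodermal library lay above both 24 h controls and both global libraries lay below them. For mua-3 the depletions were 1.76 apart on the log2 scale, and for mua-6 they were 1.00 apart. Both genes were chosen with this contrast known, so the difference is a description: passing the threshold in that contrast is no support for it, and it was not tested on values independent of the choice.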

How the results depend on the processing

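Over the 19 alternatives, leaving out each library gave 348 to 761 genes in global and 244 to 463 in hypodermal depletion against the 24 h controls, 156 to 427 between the depletions, 76 to 241 between control times, and 657 to 1262 and 507 to 1118 for global and hypodermal depletion against the 18 h controls. The members past the threshold ranged from 0 to 2, 0 to 1, 1 to 3, 0, 0 to 4 and 0 to 2 in that order. With libraries thinned to the smallest total the gene counts were 345, 176 and 134 in the first 3 comparisons and 749 and 630 against the 18 h controls, and members numbered 0 in global depletion against the 24 h controls, 1 between the depletions and 1 in hypodermal depletion against the 18 h controls. Thinning leaves fewer counts to test. With unlisted counts as 0, 250 genes passed in hypodermal depletion against the 24 h controls, and members numbered 0 and 1 in global depletion against the 24 h and 18 h controls. With unlisted counts as 2 and with total-count scaling, 2 members passed in global depletion against the 18 h controls, and total-count scaling left 0 against the 24 h controls. With no filter 435 genes passed between control times and 1626 in hypodermal depletion against the 18 h controls, while members numbered 0 in global depletion against either control. With only the compared groups fitted, 92 genes passed between control times, and 1 member each in global depletion against the 24 h controls and hypodermal depletion against the 18 h controls. The cause was not tested.

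No estimate that turned sign was past the threshold under that alternative. Between control times these were let-805 at 0.13, 0.068 and 0.38 (unlisted as 0, as 2, no filter), mup-4 at 0.23 and vab-10 at 0.12 (no filter), and mua-3 at -0.011 (thinned). Leave-outs there gave -0.031 to 0.68 for mua-3, -0.27 to 0.15 for mup-4, -0.61 to 0.03 for vab-10, -0.14 to 0.15 for let-805 and -1.11 to 0.28 for vab-19. Elsewhere the sign also turned for ifb-1, mup-4 and vab-10 (to 0.22) in hypodermal and vab-19 in global depletion against the 24 h controls, and for vab-10 between the depletions. Against the 18 h controls it turned for mua-6 (to 0.29) and vab-19 in global and for let-805 (to 0.21), mup-4 (to 0.29), vab-10 and vab-19 in hypodermal depletion. Unlisted counts as 0 moved the median of all genes to between 0.10 and 0.36 against controls, and total-count scaling moved it to 0.11 in global depletion against the 24 h controls.

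Replicate numbers did not pair the libraries: residual correlations of 12 same-numbered pairs ran from -0.06 to 0.11. With the replicate block, 269 genes passed in hypodermal depletion against the 24 h controls and 211 between the depletions, no member count changed, fbn-1 and ifo-1 were not called in the first of these, ifa-1, pix-1, unc-52, deb-1 and lim-8 were not called in hypodermal depletion against the 18 h controls, and 6 of 9 libraries correlated best with their own number, a hint from the data and not the design. Depth limits the weak genes, vab-19 and ifa-3, most.

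The alternatives for genes of the related lists were chosen after seeing the data.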
